A study of Homo sapiens with 2 samples.

Results

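The genes described here are 10 genes of bile acid synthesis and its feedback through the farnesoid X receptor (FXR), taken from the 41127 genes and unnamed transcripts with a usable probe on the arrays. They were chosen by function, as the probes that are not controls and whose RefSeq transcript belongs to CYP7A1, CYP7B1, CYP8B1, CYP27A1, AKR1D1, BAAT, SLC27A5, NR1H4, NR0B2 or FGF19. Each of the 10 genes had 1 probe, printed as 1 spot. RNA came from HepG2 cells, an established human hepatocellular carcinoma line grown in high-glucose medium with serum. One culture received dimethyl sulfoxide (DMSO, at 1‰), the control, and the other received hawk tea extract (HTE), both for 24 h. The sample labels give a dose of 200 μg/mL HTE, whereas the study's own description of the array experiment gives 300 μg/mL, the number that the array's name also carries, so the sources disagree on the dose. With 1 array per condition there were no replicates, no test between the conditions was run, and how much cultures vary could not be measured. Both arrays sat on the same slide, and the effect of an array or culture cannot be told apart from that of the treatment. HepG2 is a tumour line, and the makeup of the extract was not part of these measurements.

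Hepatocytes turn cholesterol into bile acids along a classic route, which CYP7A1 opens, and an alternative route, which CYP27A1 opens in mitochondria. The products are joined to coenzyme A and then to glycine or taurine before export into bile. FXR senses bile acids, and through the repressor SHP (NR0B2) and the hormone FGF19 it restrains CYP7A1, which closes the feedback loop.

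In HTE-treated cells, 1 of the 10 genes was at least 2-fold higher (BAAT), 2 were at least 2-fold lower (AKR1D1 and CYP8B1), and 4 lay within 2-fold (CYP27A1, SLC27A5, NR1H4 and NR0B2). The other 3 (CYP7A1, CYP7B1 and FGF19) were not well above background on either array. For comparison, 23752 genes and transcripts stood well above background on the DMSO array, the HTE array or both, and of these 5.25% were higher and 3.03% lower by 2-fold or more. For the 7 measured genes the log2 ratios (HTE over DMSO) ran from -1.64 to 1.60 with a median of -0.27, and the median over all measured genes was 0.00. These directions are relative to the other genes on each array. When the arrays were scaled to spike-in RNA instead, the all-gene median moved by -1.36, and of the 7 genes and the lists described below BAAT (0.23) and SLC51A (0.07) alone had a ratio above 0. In all, 57.8% of the 41127 genes and transcripts were measured in this sense, and 76.3% of those with a gene name were.

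A ratio is given with errors of the array alone, since variation among cultures cannot enter them. The first is the signal error that the scanner software estimated for each spot, which was about 10.0% of the signal for the brighter genes. The second is the SD of the log2 ratio among replicate spots, the median over probes of similar brightness that were printed at least 5 times. On the arrays, 60.6% of the spots that are not controls were well above background for DMSO and 56.6% for HTE, and no spot was saturated. The dimmest probe well above background had a signal of 66.6 on the DMSO array and 94.6 on the HTE array. All 15 hepatocyte markers, among them ALB, TTR and HNF4A, were measured, with a median log2 ratio of -0.05 and summed signals of 966414 (DMSO) and 862125 (HTE) before scaling, and 2 of them (FGA and CEBPA) were at least 2-fold lower. Of 12 markers of other liver cells 11 were measured, including the epithelial genes EPCAM and SOX9, with STAB2 not well above background. Their median log2 ratio was 0.00, the value of COL3A1, whose bound was set to 0. Their summed signals before scaling were 102474 (DMSO) and 103808 (HTE), of which EPCAM made up 51072 and 57491, and 2 of them (CD14 and PECAM1) were at least 2-fold lower.

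Promoter sequence is shown for the genes with the largest changes, BAAT and AKR1D1, and for the receptor NR1H4. Each run holds the 250 bases before a RefSeq transcription start, 5′ to 3′ on the strand of the gene, from the GRCh38.p14 table. Windows of 5 of the 10 genes were searched, those of CYP27A1, AKR1D1, BAAT, NR1H4 and SLC27A5. CYP7A1, CYP7B1, CYP8B1, NR0B2 and FGF19 were not part of the search. Capitals mark the nuclear receptor half-site AGGTCA (or TGACCT on the other strand) and CAAAG (or CTTTG), the core of the HNF4A element. BAAT has 2 starts, on chromosome 9.
BAAT, chr9:101383874-101384123, minus strand: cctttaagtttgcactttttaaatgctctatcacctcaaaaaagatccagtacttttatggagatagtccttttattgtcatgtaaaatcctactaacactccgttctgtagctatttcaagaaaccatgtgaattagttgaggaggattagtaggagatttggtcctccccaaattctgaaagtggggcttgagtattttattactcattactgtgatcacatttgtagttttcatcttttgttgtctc
BAAT, chr9:101383565-101383814, minus strand: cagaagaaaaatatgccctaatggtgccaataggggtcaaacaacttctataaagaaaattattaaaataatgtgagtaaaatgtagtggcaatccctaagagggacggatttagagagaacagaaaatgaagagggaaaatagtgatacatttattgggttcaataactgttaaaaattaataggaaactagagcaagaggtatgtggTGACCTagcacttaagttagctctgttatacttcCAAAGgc
AKR1D1, chr7:138076209-138076458, plus strand: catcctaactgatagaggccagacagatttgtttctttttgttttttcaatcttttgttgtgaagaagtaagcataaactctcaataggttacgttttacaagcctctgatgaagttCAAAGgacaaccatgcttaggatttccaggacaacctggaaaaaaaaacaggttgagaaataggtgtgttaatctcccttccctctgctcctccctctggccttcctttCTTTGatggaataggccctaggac
NR1H4, chr12:100503110-100503359, plus strand: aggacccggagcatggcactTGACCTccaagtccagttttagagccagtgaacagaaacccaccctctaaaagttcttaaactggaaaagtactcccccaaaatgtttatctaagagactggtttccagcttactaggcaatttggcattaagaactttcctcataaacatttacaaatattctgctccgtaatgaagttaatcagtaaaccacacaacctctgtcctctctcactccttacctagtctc

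A half-site stood 41 to 36 bases before one BAAT start and 230 to 225 bases before the NR1H4 start. The windows of AKR1D1, CYP27A1 and SLC27A5 and the other BAAT window held none. Over the 35116 windows of this length, 12.1% held a half-site. CAAAG occurred at 2 places in the AKR1D1 window and at 1 in the second BAAT window. It also occurred in the windows not shown, at 2 places for CYP27A1 and at 1 for SLC27A5. The NR1H4 window and the first BAAT window held none, and 42.1% of all windows held it. The FXR element has 2 half-sites that face each other with 1 base between them. It was not found with up to 2 mismatches in any window searched, and 0.945% of all windows held such a match. The FXR target NR0B2 was not among the genes searched, nor were FGF19, CYP7A1, CYP7B1 and CYP8B1. These matches describe letters in a short window, and binding was not measured. Base composition differed between the promoters shown, with a GC content of 35.2% and 34.8% for the BAAT windows, 40.8% for AKR1D1 and 42.0% for NR1H4.

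Of the enzymes particular to the classic route, CYP7A1 could not be compared and CYP8B1 was lower on the HTE array. The probe of CYP7A1, the rate-limiting enzyme of bile acid synthesis, had a processed signal of 13.8 ± 13.9 (software error) in DMSO-treated cells and 19.2 ± 19.3 in HTE-treated cells. Both signals are as small as their own errors, so no ratio is given. CYP8B1, which directs the route towards cholic acid, had a signal of 235 ± 28.6 on the DMSO array and 97.9 ± 25.2 on the HTE array. The HTE spot was not well above background. The ratio of the 2 signals was 2.14-fold lower (log2 ratio of -1.10, against a spot error of 0.41), an estimate that rests on a dim spot and not a minimum. The 2-fold call was lost with normexp background correction (-0.51).

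**Figure D1:**
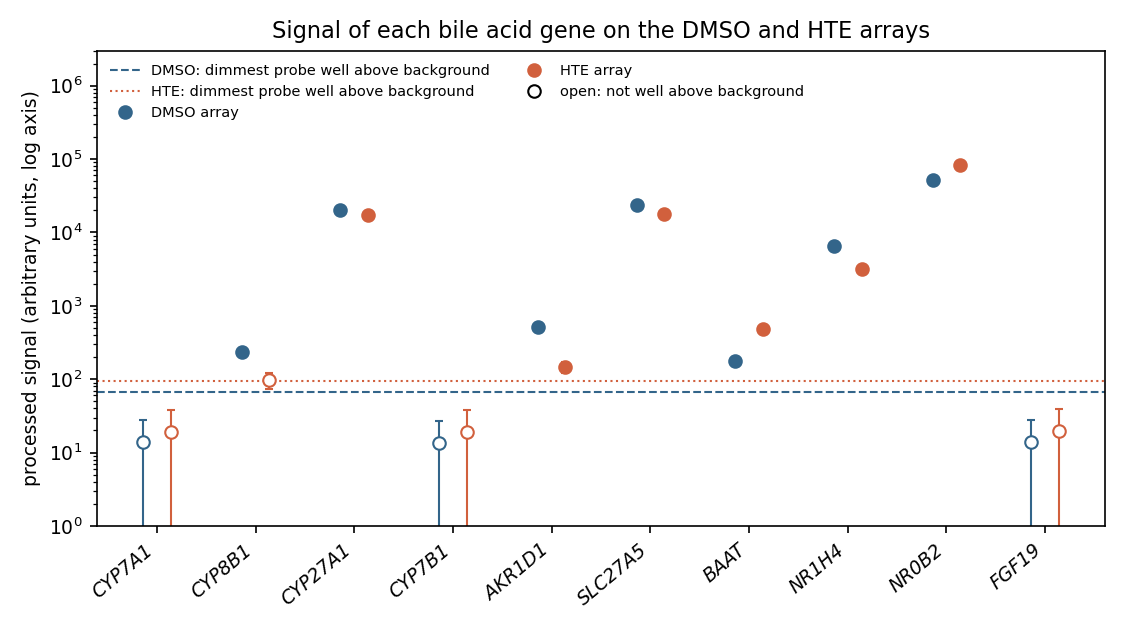
Processed signal of each of the 10 genes on the DMSO array (blue) and the HTE array (orange), on a log axis, before scaling. Bars are the software's error of the spot, hidden by the symbol where small and running off the axis where the error is as large as the signal; open circles are spots not well above background, and horizontal lines mark the dimmest probe well above background. CYP7A1, CYP7B1 and FGF19 lie below both lines on both arrays, and BAAT and NR0B2 are the genes with the higher signal after HTE among those measured.

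The opening enzyme of the alternative route did not differ beyond the error. CYP27A1, the mitochondrial sterol hydroxylase, had signals of 20089 ± 2009 (DMSO) and 17480 ± 1748 (HTE), and its log2 ratio after scaling was -0.03 ± 0.20 (spot error). The sign of this small ratio turned with quantile normalization (0.01). CYP7B1, the oxysterol hydroxylase that follows it, stayed near background on both arrays, with signals of 13.6 ± 13.7 and 19.2 ± 19.2. Thus neither of the CYP7 enzymes could be compared between the conditions.

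AKR1D1 showed the largest decrease of the 7 measured genes. It encodes the reductase that sets the bent shape of the bile acid ring system, a step both routes share. Its signal was 514 ± 53.2 in DMSO-treated cells and 147 ± 24.4 in HTE-treated cells, both well above background. The log2 ratio was -1.64 ± 0.28 (spot error), a 3.11-fold lower level and 5.8 times the error. Replicate spots of similar brightness had an SD of 0.12 (69 probes). Of all measured genes, 0.48% had a lower ratio. With normexp background correction the log2 ratio was -1.18, still past 2-fold. Over the 14635 other named genes measured on both arrays, SLC38A8, BRIP1 and TPPP2 had the pair of scaled signals closest to that of AKR1D1, at Euclidean distances of 0.14, 0.19 and 0.19 on the log2 scale. Such likeness rests on 2 arrays only.

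Of the 2 conjugation enzymes, the one that acts first was slightly lower and the one that acts last was higher. SLC27A5, which activates bile acids with coenzyme A, had signals of 23814 ± 2381 (DMSO) and 17599 ± 1760 (HTE), with a log2 ratio of -0.27 ± 0.20. This is 1.3 times the spot error, and above the SD of 0.04 among replicate spots at that brightness. BAAT, which transfers bile acids to glycine or taurine, had signals of 179 ± 24.4 (DMSO) and 482 ± 52.3 (HTE). Its log2 ratio was 1.60 ± 0.25, a 3.03-fold higher level and 6.35 times the spot error, and 1.74% of all measured genes had a higher ratio. Replicate spots at the brightness of BAAT had an SD of 0.12. Its log2 ratio was 1.24 with normexp background correction.

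**Figure D2:**
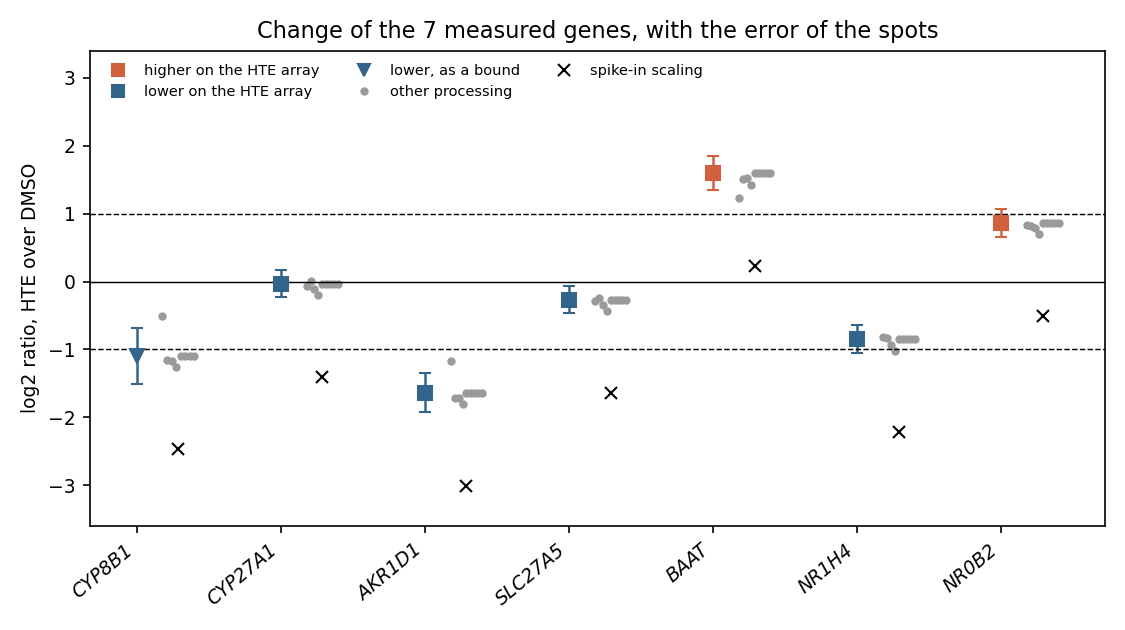
Log2 ratio of HTE over DMSO for the 7 measured genes after scaling to the 75th percentile (large symbols, bars are the spot error), with the other processing choices as grey points and spike-in scaling as crosses. Dashed lines mark 2-fold. The triangle, labelled as a bound, is the estimate for CYP8B1, whose HTE spot was not well above background. BAAT stays above 1 and AKR1D1 below -1 under every grey point, whereas spike-in scaling moves all 7 genes down and leaves BAAT at 0.23.

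The receptor and its target SHP differed in opposite directions, both by less than 2-fold. NR1H4, the gene of FXR, had a signal of 6526 ± 653 in DMSO-treated cells and 3215 ± 322 in HTE-treated cells. The log2 ratio was -0.85 ± 0.20, or 1.80-fold lower and 4.16 times the spot error, and without scaling it passed 2-fold (-1.02). NR0B2, the gene of SHP, a repressor without a DNA-binding domain that FXR induces, had signals of 51767 ± 5177 and 83846 ± 8385. Its log2 ratio was 0.87 ± 0.20, or 1.82-fold higher and 4.25 times the spot error, a direction that turned with spike-in scaling (-0.50) but with no other scaling. Of all measured genes 4.74% had a lower ratio than NR1H4, and 6.97% had a higher one than NR0B2. FGF19, the gut hormone that reports bile acid return to the liver, stayed near background on both arrays, with signals of 13.7 ± 13.7 and 19.5 ± 19.5.

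**Figure D3:**
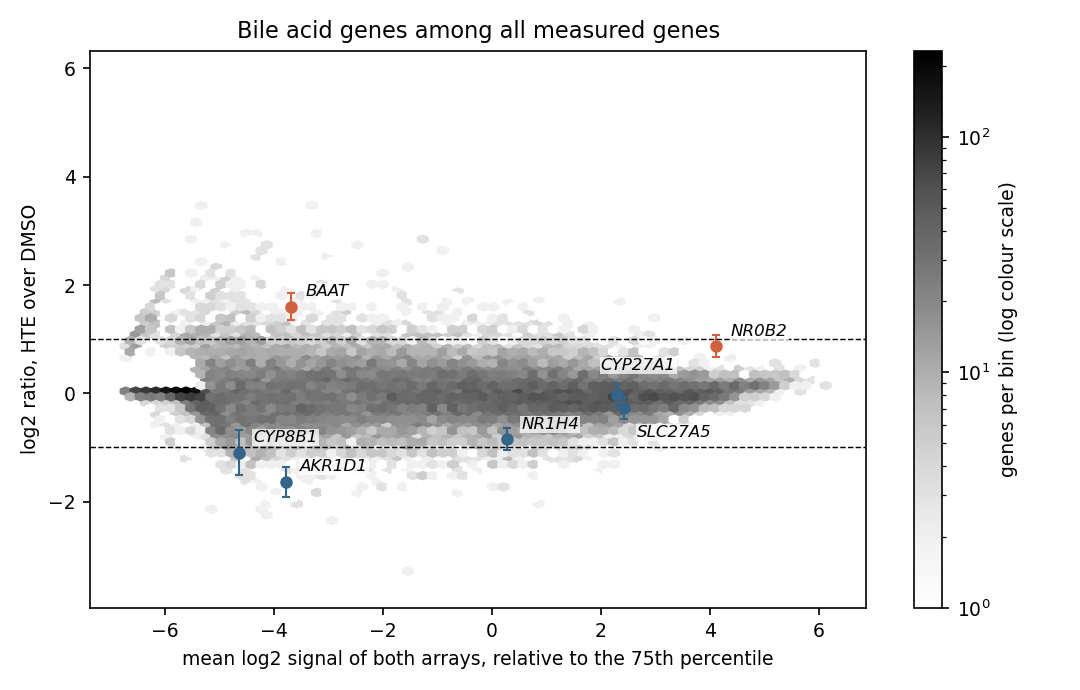
Log2 ratio of HTE over DMSO against the mean log2 signal of both arrays, relative to the 75th percentile, for 23752 genes and transcripts (grey hexagons, darker where more genes fall) and the 7 measured genes (points, with the spot error). Dashed lines mark 2-fold. BAAT, AKR1D1 and CYP8B1 lie at low signals, where the cloud is wide, whereas NR0B2 lies at a high signal near its upper edge.

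Of 11 further enzymes of bile acid synthesis 8 were measured, and none of them differed by 2-fold, with a median log2 ratio of 0.09. They ranged from -0.59 for AKR1C4 to 0.23 for AMACR, the racemase of the bile acid side chain, whose dimmer probe gave -0.03. AKR1C4 reduces the steroid ketone and has close paralogs that its probe may also detect. The dimmer probe of AKR1C4 was well above background on the DMSO array only, and its bound was set to 0. HSD3B7, which acts right after the CYP7 step, had a log2 ratio of 0.09. The peroxisomal enzymes of side-chain shortening lay on both sides of 0, with 0.23 for ACOX2, -0.23 for HSD17B4, and 0.10 and -0.28 for the brighter and dimmer probes of SCP2. CYP39A1, CYP46A1 and CH25H, which hydroxylate sterols ahead of these steps, were not well above background. The median fell below 0 without scaling (-0.08) and with the mean over all probes (-0.0025).

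Of 14 genes of bile acid transport 9 were measured, and 1 of them was at least 2-fold higher. SLC51A, the alpha subunit of the basolateral exporter OST, had signals of 358 (DMSO) and 866 (HTE) and a log2 ratio of 1.44 ± 0.21 (spot error), or 2.72-fold. Its partner subunit SLC51B went the other way, with signals of 9778 and 5605 and a log2 ratio of -0.63 ± 0.20. The pumps ABCC2 (0.58) and ABCC3 (0.35, with 0.84 at its dimmer probe) were higher by less than 2-fold. ABCB4, the phospholipid floppase of the canalicular membrane, had a log2 ratio of -0.30. The median was 0.35. ABCB11, the canalicular bile salt export pump, and the uptake carriers SLC10A1, SLCO1A2, SLCO1B1 and SLCO1B3 were not well above background on either array.

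All 17 regulators of the pathway were measured, with a median log2 ratio of 0.04, and 1 was at least 2-fold higher. NR1H2, an oxysterol receptor, was well above background on the HTE array only, with signals of 74.9 and 161. The ratio of these signals was 2.41-fold higher (log2 ratio of 1.27 ± 0.40, spot error), an estimate that rests on a dim spot and not a minimum. With normexp background correction NR1H2 was not past 2-fold (0.72). RXRA, the partner of FXR, had a log2 ratio of -0.11 ± 0.20, and HNF4A, an activator of CYP7A1 and CYP8B1, had one of 0.13 ± 0.21. Neither differed beyond the spot error. The FGF19 receptor FGFR4 (-0.12) and its co-receptor KLB (-0.34, the lowest of the regulators) were below 0, and the xenobiotic receptor NR1I2 (0.63) was above it.

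Of 20 other genes known to respond to FXR 18 were measured, with 9 above and 9 below 0 and a median log2 ratio of 0.01. Over all 23752 measured genes 10849 were above and 11631 below 0. The direction in which FXR acts on each gene was not taken into account. SLC51A, SLC51B, ABCB4 and ABCB11 were also in the transport list, MAFG among the regulators, and FGA, FGB and FGG among the hepatocyte markers. One of the 18 was at least 2-fold higher, SLC51A, and 2 were at least 2-fold lower. KNG1, the kininogen gene, was well above background on the DMSO array only, with signals of 391 and 74.6, and was at least 3.67-fold lower (log2 ratio of -1.88, or -1.01 with normexp background correction). FGA, the fibrinogen alpha chain, had signals of 16423 and 6736 and a log2 ratio of -1.11 ± 0.20, and its dimmer probes gave -1.25 and -1.38. The other fibrinogen chains had log2 ratios of -0.36 (FGB) and -0.58 (FGG). UGT2B4, a glucuronidating enzyme of bile acids, had a log2 ratio of 0.92, and ABCB11 and CYP3A4 were not well above background.

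**Figure D4:**
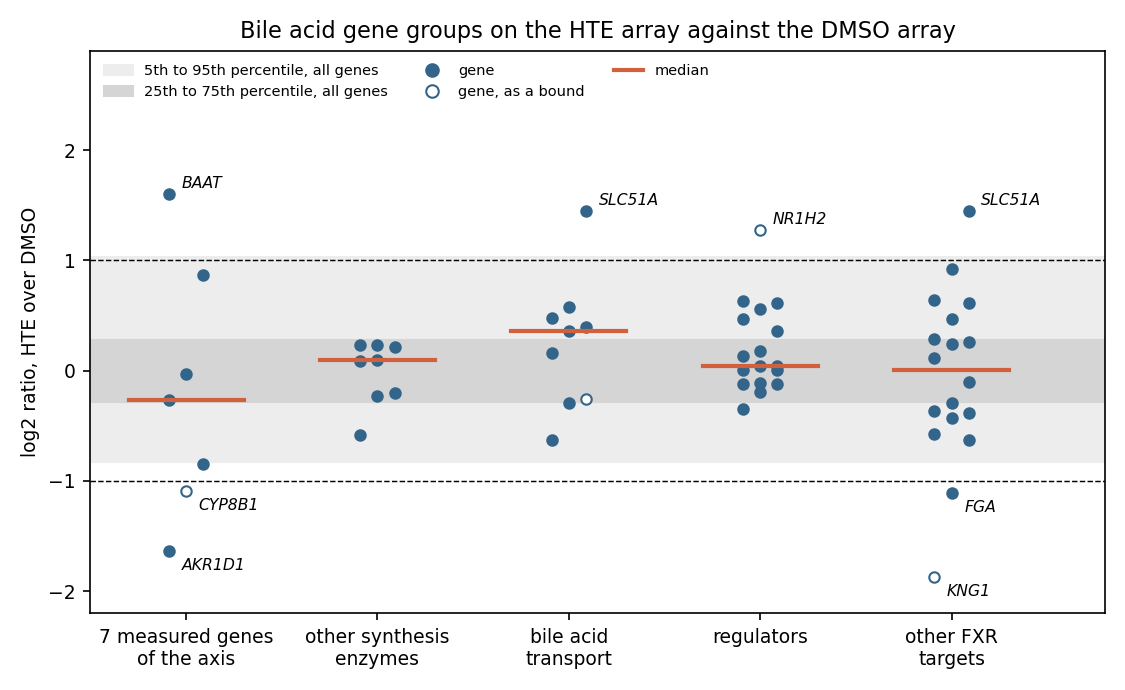
Log2 ratio of HTE over DMSO for the measured genes of each group (points), with the group median (orange line). Open points, labelled as a bound, had a spot not well above background on the DMSO or the HTE array. Grey bands are the percentiles of all 23752 measured genes and transcripts. Dashed lines mark 2-fold, and genes past it are named. The light band spans the 5th to 95th percentiles of all genes (-0.83 to 1.03). Of the 7 measured genes CYP27A1, SLC27A5 and NR0B2 lie inside it, and BAAT, AKR1D1, CYP8B1 and NR1H4 (-0.85) outside. In the lists the named genes alone lie outside.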

How the data were processed

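HepG2 cells treated with DMSO (1 sample) or HTE (1 sample) were profiled on 1-colour Agilent arrays. The deposited files hold scanner output of the authors' Agilent Feature Extraction (11.5.1.1 per the file headers, 10.7 per the submitters' processing notes). The processed signal deposited by the authors is an intensity after background subtraction and detrending, in which very low values were set to a small positive number. It was not scaled between arrays. The software also gave each spot's error and flags.

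Here outlier spots were left out, log2 was taken, the 75th percentile was subtracted on each array, and replicate spots were averaged. Probes were named through RefSeq accessions in the GRCh38.p14 gene table (28146 of 50532 probes). A probe counted as measured if a share of 0.5 or more of its spots stood well above background on the DMSO array, the HTE array or both. Where that held on 1 array only, the ratio is called a bound. It sets the bright signal against the higher of the dim spot's own signal and the lowest signal well above background. Where the dim spot's own signal was the higher, as for CYP8B1 and NR1H2, the ratio is an estimate and not a minimum. The other bounds are no strict minimum either. A spot brighter than that lowest signal, such as the HTE spot of CYP8B1, can still fail to stand well above background. Bounds under 1-fold were set to 0. A gene was represented by its brightest measured probe, and 2-fold, the methods' cutoff, counted as changed. Signals of different probes were not used to rank genes by expression. They entered the choice of the brightest probe, the descriptions as dim or bright, the summed signals of the markers and the neighbours of AKR1D1.

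The 10 genes and 6 gene lists (other synthesis enzymes, transport, regulators, FXR targets, hepatocyte markers and markers of other liver cells) were chosen with earlier results of these data known. Named are all 10 genes, the list genes past 2-fold, and otherwise the largest rise and fall of a list. The other list genes were named after their values were seen. The neighbours of AKR1D1 are the 3 genes with the closest signals on both arrays.

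Normexp (limma 3.58.1, R 4.3.3, offset 50) was run on the median spot signal. All else ran in Python 3.11.15 (pandas 2.3.3, numpy 2.4.6, matplotlib 3.10.9) and was tested on simulated data. The number of arrays limits the precision.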

Additional observations from a re-analysis of the deposited data

How the results depend on the processing

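No paired analysis was possible because DMSO and HTE have a single array each. Apart from spike-in scaling, 59 of 62 values of the single genes moved by less than their spot error. The exceptions were CYP8B1 (-0.51), AKR1D1 (-1.18) and BAAT (1.24) with normexp background correction, and the cause was not tested. The settings for dim probes, outlier spots and the mean over probes left every value they gave unchanged. With 1 probe and 1 spot per gene they could hardly alter a ratio, so their agreement is no check. Scaling to the median and no scaling each shifted these genes by a common amount, smaller than the spot error of any of them, so their agreement is no check either. Normexp background correction and quantile normalization alone could move single genes by different amounts.

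Spike-in scaling moved the all-gene median by -1.36, and the 8 spike-in probes themselves differed, with log2 ratios of 0.45 to 1.57. It gave -2.47 for CYP8B1, -1.40 for CYP27A1, -3.01 for AKR1D1, 0.23 for BAAT, -1.64 for SLC27A5, -2.22 for NR1H4 and -0.50 for NR0B2. The 7 genes then had a median of -1.64, 0 higher and 5 lower, against 114 higher and 18475 lower over all genes. The list medians were -1.28 for the other synthesis enzymes, -1.02 for transport, -1.33 for regulators, -1.37 for FXR targets, -1.42 for hepatocyte markers and -1.35 for markers of other liver cells, with SLC51A (0.07) the only gene of these lists above 0.

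Without scaling the all-gene median moved by -0.16, and the medians were -0.44 for the 7 genes, -0.080 for the other synthesis enzymes, 0.18 for transport, -0.13 for regulators, -0.17 for FXR targets, -0.22 for hepatocyte markers and -0.15 for markers of other liver cells, and 1209 genes were lower and 883 higher. Of the changed genes 42.2% were then higher, against 63.4% after scaling to the 75th percentile. Scaling to the median gave, in the same order, -0.35, 0.011, 0.27, -0.039, -0.074, -0.13 and -0.062, and quantile normalization gave -0.17 for hepatocyte markers.

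With normexp background correction 1 of the 7 genes was at least 2-fold lower, 825 genes were higher and 468 lower, and the medians were 0.27 for transport and -0.25 for markers of other liver cells. Without a filter on dim probes, which adds genes at background, the medians were 0.31 for the 10 genes, 0.21 for the other synthesis enzymes, 0.45 for transport, 0.18 for FXR targets and -0.14 for markers of other liver cells, with 2390 genes higher and 1868 lower. With genes measured on both arrays alone, 1 of the 10 was 2-fold lower, and the medians were -0.15 for these genes, 0.11 for FXR targets and -0.14 for markers of other liver cells. Using dim probes at their own value gave 1320 lower and 1341 higher genes (50.4% of those changed). The median of the markers of other liver cells was then -0.31, and also -0.31 with the mean over all probes, which gave -0.0025 for the other synthesis enzymes. A 1.5-fold cutoff gave 2 higher genes of the 10 and 2953 higher and 2505 lower over all genes, and a 3-fold cutoff gave 1 lower of the 10 and 422 and 129 over all. Of 144 counts of changed genes in the lists, 121 were within 1.5 times of the value reported. Signal over background limits the dim genes, CYP8B1, BAAT and AKR1D1 among them.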

Other observations

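Different probes of a gene did not always give the same sign, as for SCP2 and AMACR above. Of the regulators, PPARA, a receptor of fatty acids, had a log2 ratio of 0.47 at its brighter probe and -0.40 at its dimmer probe, and NR1I3, a xenobiotic receptor, had 0.004 and 0.76. MAFG, a repressor that FXR induces, had 0.61 and 0.99, and both probes of KLB were below 0 (-0.34 and -0.47). Each of the 10 genes of bile acid synthesis and FXR had a single probe, so probes were not compared for them.

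CEBPA, a transcription factor of hepatocytes, had signals of 27382 on the DMSO array and 10849 on the HTE array, a log2 ratio of -1.16 ± 0.20 (spot error). CD14 (-1.77) and PECAM1 (-1.82), markers of macrophages and of endothelium that were both well above background in these cells, were the lowest of the cell markers. Other markers of the same cells were mixed. The macrophage marker CD68 (0.46) and the leukocyte marker PTPRC (0.14, with -0.88 at its dimmer probe) were above 0, and the endothelial marker VWF (-0.63) was below it. The part of these markers in the values of the bile acid genes was not tested.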
